A study of Homo sapiens with 6 samples.

Results

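The genes described here are the sensors of the unfolded protein response and a set of its targets, in LNCaP cells treated with siRNA to PCARNEQ. They form a list of 10 genes (ATF6, ATF6B, ERN1, EIF2AK3, XBP1, EDEM1, DNAJC3, HSPA5, HERPUD1 and DDIT3), of 19775 genes that the arrays measured through probe sets paired with a single gene. Every probe set annotated to 1 of the 10 genes alone was taken, which gave 24 probe sets. LNCaP is an established, androgen-responsive human prostate cancer cell line. The cells had received siPCARNEQ, a small interfering RNA against the non-coding RNA PCARNEQ, or siEGFP, a control siRNA against the fluorescent protein EGFP. Total RNA of each group was measured on 3 single-colour Affymetrix arrays, numbered 1 to 3 within each group. No dose, time of harvest or separate cultures are given in the labels, so p-values reflect array-to-array spread alone, part or all of which may be technical.

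The unfolded protein response is the programme by which a cell adjusts to unfolded proteins in the endoplasmic reticulum (ER). It starts from 3 sensors in the ER membrane. ATF6 is carried to the Golgi and cut to release a transcription factor, IRE1 (encoded by ERN1) cuts XBP1 mRNA so that it is spliced into the form that encodes an active factor, and PERK (encoded by EIF2AK3) phosphorylates the translation factor eIF2alpha and so favours ATF4 and, after it, DDIT3. Secretory epithelia, the prostate among them, carry a heavy load of protein through the ER. Cleavage, splicing and phosphorylation were not measured by these arrays, which report the RNA level of each gene.

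The DNA element through which ATF6 and XBP1 act on many of these genes is the ER stress response element (ERSE), CCAAT and CCACG held 9 bases apart. In all, 12 RefSeq promoter windows matched the 10 genes, with more than 1 window for XBP1 and DDIT3. The 250 bases before each annotated start were searched on both strands of GRCh38.p14. A gene was counted if any of its windows matched, while the shares given are per window. The full ERSE was found before HSPA5 and XBP1, and in 0.074% of all 35116 windows. The other XBP1 window, chr22:28800078-28800327, held no match to any element searched. A looser form, in which the second part is CCAC, contains the full element by construction and was found before XBP1, DDIT3, HSPA5 and HERPUD1, against 0.282% of all windows. ERSE-II (ATTGG, 1 base, CCACG) was found before HERPUD1 and in 0.0513% of all windows. TGATGCAA, the core of the C/EBP-ATF element bound by ATF4, was found before HERPUD1 as well, on the opposite strand, and in 0.772% of all windows. TGACGTGG, the core of the element preferred by XBP1 and ATF6, was found before none of the 10 genes and in 0.612% of windows. These matches describe the letters of the windows and not the binding of a factor. The 4 promoters with a match are shown because the main probe sets of their genes differed in size of change, which is given further down. Each is written 5′ to 3′ in the direction of the gene, with the matched bases in capitals.
HSPA5, minus strand, chr9:125241344-125241593: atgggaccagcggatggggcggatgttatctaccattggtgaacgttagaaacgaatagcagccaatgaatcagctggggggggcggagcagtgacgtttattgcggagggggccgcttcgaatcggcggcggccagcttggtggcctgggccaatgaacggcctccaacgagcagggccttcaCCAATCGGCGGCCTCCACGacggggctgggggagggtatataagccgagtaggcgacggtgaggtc
XBP1, minus strand, chr22:28800570-28800819: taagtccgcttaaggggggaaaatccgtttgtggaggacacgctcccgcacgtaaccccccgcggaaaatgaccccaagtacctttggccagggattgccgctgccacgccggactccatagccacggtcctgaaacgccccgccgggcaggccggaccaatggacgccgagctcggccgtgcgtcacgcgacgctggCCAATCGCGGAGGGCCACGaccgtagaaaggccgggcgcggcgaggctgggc
DDIT3, minus strand, chr12:57520518-57520767: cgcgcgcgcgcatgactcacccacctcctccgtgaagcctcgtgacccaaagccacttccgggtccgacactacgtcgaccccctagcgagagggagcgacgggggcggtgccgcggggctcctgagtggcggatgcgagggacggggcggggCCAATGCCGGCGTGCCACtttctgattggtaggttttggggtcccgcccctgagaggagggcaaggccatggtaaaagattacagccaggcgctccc
HERPUD1, plus strand, chr16:56931892-56932141: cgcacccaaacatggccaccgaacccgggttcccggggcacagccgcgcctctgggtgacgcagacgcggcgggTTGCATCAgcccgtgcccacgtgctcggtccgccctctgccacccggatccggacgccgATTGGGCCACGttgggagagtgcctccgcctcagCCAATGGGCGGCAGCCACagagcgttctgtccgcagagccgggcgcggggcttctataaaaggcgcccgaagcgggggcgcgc
The full element lies at positions -66 to -48 from the annotated start of HSPA5 and at -52 to -34 for XBP1. In DDIT3 the looser form lies at -97 to -80. HERPUD1 carries, in order towards the start, the C/EBP-ATF core at -176 to -169, ERSE-II at -117 to -107 and the looser ERSE at -83 to -66.

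All values below are log2 of the probe-set intensity, and a difference is siPCARNEQ minus siEGFP. The median level on every array was 7.03. Arrays 2 and 3 of a group lay close together and array 1 stood apart, with an SD across probe sets of 0.136 between siPCARNEQ arrays 2 and 3, against 0.371 and 0.373 for array 1 against each of them. In siEGFP the same distances were 0.129, against 0.232 and 0.239. RNA integrity was read from ACTB, as its 3′ minus its 5′ control signal. This came to 1.84 on siPCARNEQ array 1, to 0.69 and 0.68 on siPCARNEQ arrays 2 and 3, and to between 0.63 and 0.78 on siEGFP arrays. Its part in the results was not tested, and the change in array 1 and in arrays 2 and 3 is given for the brightest probe set of each of the 10 genes. All 7 measured luminal prostate markers lay above the median level. Their mean level was 12.43 to 12.45 across the siPCARNEQ arrays, against 11.84 to 11.92 across the siEGFP arrays. Of them 5 rose, where 15.2% of all genes rose in the main fit. KLK2 and FOLH1 differed by 0.46 and -0.03 and did not pass. The 2 basal markers had means of 6.56 to 6.74 in siPCARNEQ, against 6.12 to 6.28 in siEGFP, and KRT14 rose by 1.02. KRT14 lay below the median level, and the other basal marker, KRT5, differed by -0.16 and did not pass. The 3 neuroendocrine markers averaged 7.29 to 7.65 in siPCARNEQ, against 7.09 to 7.26 in siEGFP, and ENO2 rose by 0.72. CHGA and SYP differed by -0.03 and 0.10 and did not pass. The 4 fibroblast and smooth muscle markers averaged 8.03 to 8.06 in siPCARNEQ, against 7.94 to 7.97 in siEGFP, and COL1A1 rose by 1.11 while ACTA2 fell by 0.46. The 4 immune and endothelial markers averaged 6.77 to 6.83 in siPCARNEQ, against 6.77 to 6.92 in siEGFP, and the smallest adjusted p among them was 0.539. The part of these shifts in the results was not tested. Fewer cells of a kind and less RNA per cell cannot be told apart in such samples. No probe set used here is paired with PCARNEQ, so the depletion itself was not analysed here.

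Sensors of all 3 arms and most of the targets rose in siPCARNEQ cells. Of the 24 probe sets, 10 rose (41.7%), 0 fell and 14 did not pass, at an adjusted p below 0.05 in limma over all 54613 probe sets. Across all probe sets, 9.92% rose and 8.61% fell, and 0 of the 24 fell at an unadjusted p below 0.05. Of the 24, 20 lay at or above the median level and 4 below it, and 0 of those 4 passed. The shares over all probe sets take in every level, so the sets compared are unlike in brightness. The 10 probe sets that rose belong to 8 of the 10 genes. ATF6B and XBP1 had no probe set that passed. Every siPCARNEQ array lay above every siEGFP array in 13 of the 24 probe sets, against 18.6% of all probe sets, and the order was the opposite in 1. For that opposite order, and for falls at an unadjusted p below 0.05, the share of all probe sets was not counted. The median difference of the 24 was 0.40, against -0.01 for all probe sets. Probe sets of 1 gene share its transcripts, so these are not 24 independent readings. The 10 genes were chosen with earlier results of these data known, so the comparison with all probe sets is descriptive only.

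**Figure D1:**
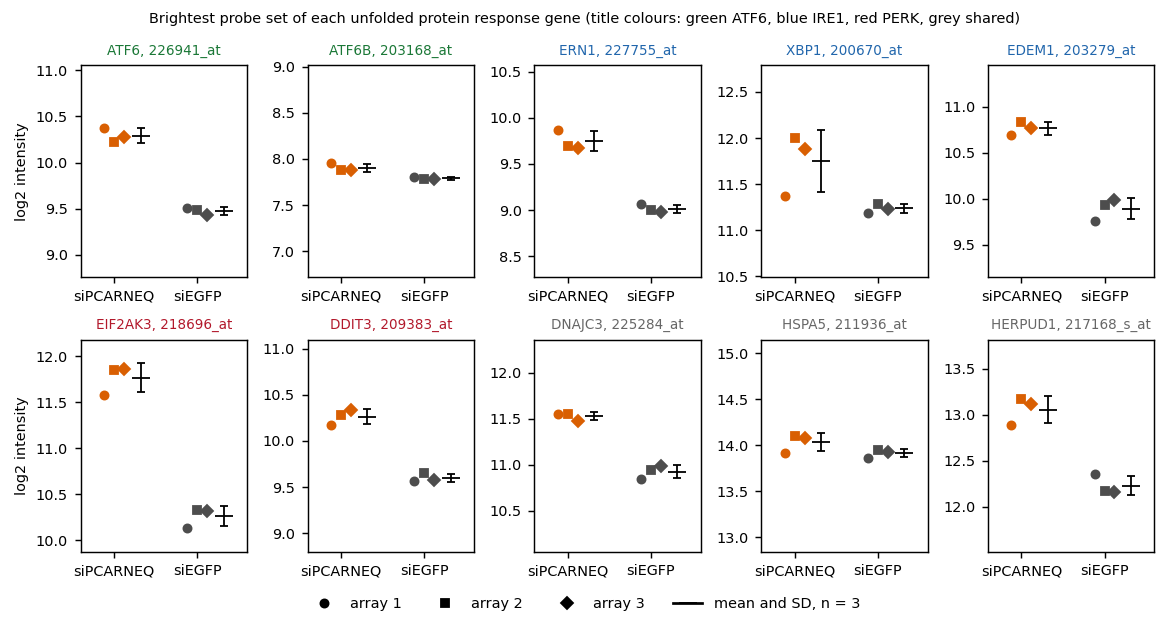
Log2 intensity of the brightest probe set of each of the 10 genes, with siPCARNEQ arrays (orange) left of siEGFP arrays (grey). Circles, squares and diamonds are arrays 1, 2 and 3, the black mark is the mean with its SD (n = 3), and every panel spans the same log2 range. EIF2AK3 has the widest gap between groups, while the groups of HSPA5 overlap and those of ATF6B nearly touch.

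The PERK arm held the largest difference among the 10 genes. EIF2AK3, which encodes the kinase PERK, had levels of 11.58, 11.85 and 11.86 in siPCARNEQ arrays 1 to 3, against 10.13, 10.33 and 10.32 in siEGFP arrays 1 to 3 (probe set 218696_at). All siPCARNEQ arrays lay more than 1 log2 unit above all siEGFP arrays. The rise was 1.50 (SE 0.11, adjusted p = 0.000289), or 2.84-fold, and it ranked 224 among the differences of all 54613 probe sets. Array 1 gave 1.45 and arrays 2 and 3 gave 1.53. The other EIF2AK3 probe set, 241463_at, lay at 4.99 ± 0.09 in siPCARNEQ and 5.03 ± 0.07 in siEGFP (SD, n = 3 each), below the median level, where a signal was not shown to be above background.

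DDIT3 encodes CHOP, a transcription factor that is induced late in the PERK arm and favours cell death. Its probe set, 209383_at, had 10.17, 10.28 and 10.33 in siPCARNEQ cells, against 9.57, 9.65 and 9.58 in siEGFP cells. The groups did not overlap, and DDIT3 rose by 0.66 (SE 0.08, adjusted p = 0.00156), or 1.59-fold. The rise was 0.61 in array 1 and 0.69 in arrays 2 and 3.

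In the ATF6 arm, ATF6 rose and its relative ATF6B did not pass. ATF6 had 10.38, 10.22 and 10.28 in siPCARNEQ cells, against 9.51, 9.48 and 9.43 in siEGFP cells, in its brightest probe set, 226941_at. The rise was 0.82 (SE 0.07, adjusted p = 0.000678), or 1.77-fold, with no overlap between groups. A further ATF6 probe set, 231927_at, rose by 0.79 (SE 0.08, adjusted p = 0.000847). Both kept close to these sizes in array 1 (0.87 and 0.84) and in arrays 2 and 3 (0.79 and 0.77).

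The remaining pair of ATF6 probe sets did not pass. Probe set 203952_at had 9.50, 9.81 and 9.79 in siPCARNEQ cells, against 9.40, 9.50 and 9.50 in siEGFP cells, a difference of 0.23 (95% interval -0.01 to 0.47). It passed without array 1 of both groups (0.30, adjusted p = 0.0106) and without siPCARNEQ array 1 alone (adjusted p = 0.0148). Probe set 217550_at had 9.21, 7.89 and 7.76 in siPCARNEQ cells, against 8.04, 7.44 and 7.68 in siEGFP cells. Its array 1 was high in both groups, and the difference was 1.17 there and 0.27 in arrays 2 and 3.

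ATF6B, a second ER-anchored factor that is cut and released like ATF6, differed little. Its brightest probe set, 203168_at, had 7.96, 7.88 and 7.88 in siPCARNEQ cells, against 7.81, 7.78 and 7.79 in siEGFP cells. The groups did not overlap, but the difference of 0.11 (0.15 in array 1 and 0.09 in arrays 2 and 3) had a 95% interval from -0.05 to 0.27 and did not pass (adjusted p = 0.328). The other ATF6B probe sets differed by 0.14 and 0.16, at adjusted p of 0.362 and 0.32, and both lay below the median level. A further probe set is shared between ATF6B and TNXB and is not counted here.

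In the IRE1 arm, the sensor and EDEM1 rose, and XBP1 depended on the arrays. ERN1 had 9.87, 9.70 and 9.67 in siPCARNEQ cells, against 9.06, 9.0 and 8.98 in siEGFP cells (227755_at). It rose by 0.74 (SE 0.08, adjusted p = 0.0014), or 1.67-fold, and the groups did not overlap. Array 1 gave 0.81, and arrays 2 and 3 gave 0.70. The other ERN1 probe sets, 235745_at and 207061_at, overlapped between groups, with differences of 0.13 (95% interval -0.07 to 0.33) and -0.06 (-0.35 to 0.23). With arrays 2 and 3 alone, 235745_at passed (0.23, adjusted p = 0.0269), while array 1 differed by -0.06.

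XBP1, the factor whose mRNA is spliced by IRE1, had 11.37, 12.00 and 11.89 in siPCARNEQ cells, against 11.19, 11.29 and 11.23 in siEGFP cells (200670_at). All siPCARNEQ arrays were above all siEGFP arrays, with siPCARNEQ array 1 closest to the controls. The difference of 0.52 (SE 0.16, 1.43-fold) did not pass among all probe sets (adjusted p = 0.0708). It passed over the 19775 genes, each represented by its brightest probe set (adjusted p = 0.0479). Blocking on replicate number gave an adjusted p of 0.0366 over probe sets. It also passed without siPCARNEQ array 1 (0.71, adjusted p = 0.000871) and with arrays 2 and 3 alone (0.68, adjusted p = 0.00141). It did not pass without any 1 of the other arrays (adjusted p = 0.16 to 0.183), with arrays 2 and 3 averaged (0.352), or as the mean over both XBP1 probe sets (0.19, adjusted p = 0.125 over genes). The difference was 0.18 in array 1. The dim probe set 242021_at lay below the median level, with 6.50, 6.38 and 6.42 in siPCARNEQ cells, against 6.59, 6.58 and 6.51 in siEGFP cells. It was the 1 probe set with the reverse order of groups, and its difference of -0.13 did not pass.

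EDEM1, an XBP1 target that delivers misfolded glycoproteins to degradation, had 10.69, 10.83 and 10.77 in siPCARNEQ cells, against 9.76, 9.93 and 9.99 in siEGFP cells (203279_at). It rose by 0.87 (SE 0.09, adjusted p = 0.000947), or 1.83-fold. Array 1 gave a rise of 0.93 and arrays 2 and 3 one of 0.84, and the groups did not overlap.

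The targets shared between arms moved unevenly. HERPUD1, an ER membrane protein of the degradation machinery, had 12.88, 13.17 and 13.11 in siPCARNEQ cells, against 12.35, 12.17 and 12.16 in siEGFP cells (217168_s_at). It rose by 0.82 (SE 0.10, adjusted p = 0.00211), or 1.77-fold, with 0.53 in array 1 and 0.97 in arrays 2 and 3. Its second probe set, 1569380_a_at, lay near the median level at 7.46 ± 0.13 in siPCARNEQ and 7.25 ± 0.09 in siEGFP (SD, n = 3 each), and did not pass.

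DNAJC3 encodes a co-chaperone that was described as an inhibitor of PERK. It had 11.55, 11.55 and 11.47 in siPCARNEQ cells, against 10.84, 10.94 and 10.99 in siEGFP cells (225284_at). The rise was 0.60 (SE 0.07, adjusted p = 0.00207), or 1.52-fold, with 0.71 in array 1 and 0.55 in arrays 2 and 3. A second DNAJC3 probe set, 1558080_s_at, rose by 0.55 (SE 0.14, adjusted p = 0.0328), with siPCARNEQ array 1 at 11.30 and arrays 2 and 3 at 10.81 and 10.83. This call was lost when any 1 of the siEGFP arrays was left out (adjusted p = 0.0943 without array 1, 0.0975 without array 2 and 0.117 without array 3). The differences of 0.29 in 235341_at and 0.17 in 208499_s_at did not pass, although the groups did not overlap in 235341_at, which passed with arrays 2 and 3 alone (0.37, adjusted p = 0.00485) and without siPCARNEQ array 1 (adjusted p = 0.00593).

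HSPA5 encodes BiP, the chaperone that binds the sensors and a standard marker of ER stress. Its main probe set, 211936_at, was the brightest of the 24, with 13.92, 14.10 and 14.08 in siPCARNEQ cells, against 13.86, 13.95 and 13.93 in siEGFP cells. The groups overlapped, and the difference of 0.12 (95% interval -0.07 to 0.31) did not pass (adjusted p = 0.385). Array 1 gave 0.06, and arrays 2 and 3 gave 0.15. The dimmer 230031_at, for which the annotation lists no accession, had 9.49, 9.05 and 9.03 in siPCARNEQ cells, against 8.35, 8.23 and 8.45 in siEGFP cells. It rose by 0.84 (SE 0.14, adjusted p = 0.00636), with 1.14 in array 1 and 0.70 in arrays 2 and 3. HSPA5 and HERPUD1 are a pair of targets whose promoters, printed above, both carry ERSE-type letters, and whose main probe sets differed in size of change. Averaged over the probe sets of each gene, the rises were close, at 0.48 for HSPA5 and 0.52 for HERPUD1. Both averages passed (adjusted p in limma over genes of 0.0023 and 0.00208). Whether HSPA5 and HERPUD1 changed by unequal amounts was not tested.

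**Figure D2:**
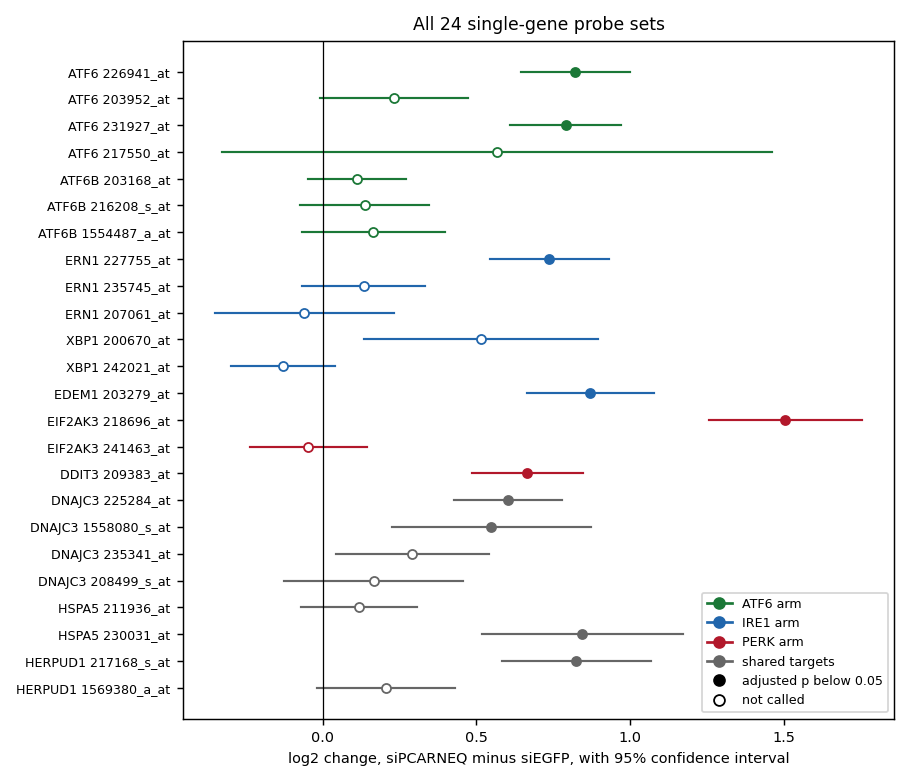
Log2 difference (siPCARNEQ minus siEGFP) of all 24 probe sets with its 95% confidence interval from limma, grouped by gene and coloured by arm. Filled points are the 10 that passed at an adjusted p below 0.05. EIF2AK3 218696_at stands furthest right at 1.50, and every open point lies at 0.57 or less.

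The 3 sensors were compared within arrays, so that a difference between probe sets in brightness drops out. ATF6 minus EIF2AK3 was -1.20, -1.63 and -1.58 in siPCARNEQ arrays 1 to 3, against -0.63, -0.84 and -0.89 in siEGFP arrays 1 to 3. The difference in change was -0.68, so the change was larger for EIF2AK3. ERN1 minus EIF2AK3 was -2.02 ± 0.27 in siPCARNEQ and -1.25 ± 0.15 in siEGFP (SD, n = 3 each), a difference in change of -0.77, again larger for EIF2AK3. ATF6 minus ERN1 was 0.54 ± 0.05 in siPCARNEQ and 0.46 ± 0.02 in siEGFP, a difference in change of 0.08. Each of the 3 pairs separated the groups fully and gave a 2-sided exact permutation p of 0.1 (0.1 adjusted over the 3 pairs), which is the smallest that 3 against 3 arrays allow. Within the 3 pairs of same-numbered arrays the exact permutation p was 0.25 for each, again the smallest possible, so neither form can reach 0.05. The choice of probe set bears on this order, since ERN1 and EIF2AK3 each have a probe set with no difference beyond its error. Averaged over all probe sets of a gene, the rises were 0.73 for EIF2AK3, 0.60 for ATF6 and 0.27 for ERN1 (adjusted p in limma over genes of 0.000599, 0.00527 and 0.0216). The EIF2AK3 mean takes in the dim 241463_at, with a difference of -0.05, which may be at background. Its size is therefore no check on the order of the sensors.

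Disagreement between probe sets of 1 gene was tested as each probe set minus the mean of the gene's others, within arrays. Of the 22 probe sets of the 8 genes with more than 1, 7 departed from the others at an adjusted p below 0.05, against 11.1% of all 31839 such probe sets. They belong to EIF2AK3, ERN1, HSPA5 and HERPUD1. The EIF2AK3 pair supplies 2 of the 7, but a probe set as dim as 241463_at may be at background, where no change can show, so that pair says nothing about disagreement. XBP1, whose 242021_at also lies below the median level, did not pass and has the same limit. In a gene with a pair of probe sets both count, with opposite signs. ERN1 227755_at rose by 0.70 (SE 0.14) more than the mean of the others (adjusted p = 0.0187). HERPUD1 217168_s_at exceeded its partner by 0.62 (SE 0.14, adjusted p = 0.0324). In ERN1 and HERPUD1 it was the brightest probe set that rose most. Among the probe sets they were set against, ERN1 207061_at lay at 7.01 in siPCARNEQ and 7.07 in siEGFP, and HERPUD1 1569380_a_at at 7.46 and 7.25. Both were near the median level of 7.03, so the same limit may hold for them. The remaining ERN1 probe set, 235745_at, was brighter, at 8.53 and 8.39.

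HSPA5 was the reverse case, since its dim probe set rose by 0.73 (SE 0.18) more than the bright one (adjusted p = 0.0442), by 1.08 in array 1 and by 0.55 in arrays 2 and 3. No ATF6, ATF6B or DNAJC3 probe set passed this test. The departures of ERN1 227755_at, HERPUD1 and HSPA5 each depended on the arrays. None of them passed with siPCARNEQ array 3 or any 1 of the siEGFP arrays left out (adjusted p just above 0.05 to 0.165). Without siPCARNEQ array 2 ERN1 passed (adjusted p = 0.0259) and HERPUD1 and HSPA5 did not (0.0749 and 0.061), and without siPCARNEQ array 1 all 3 passed. An unequal change within an array does not show that either probe set stayed constant. Where in the transcripts each probe set lies was not analysed here.

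**Figure D3:**
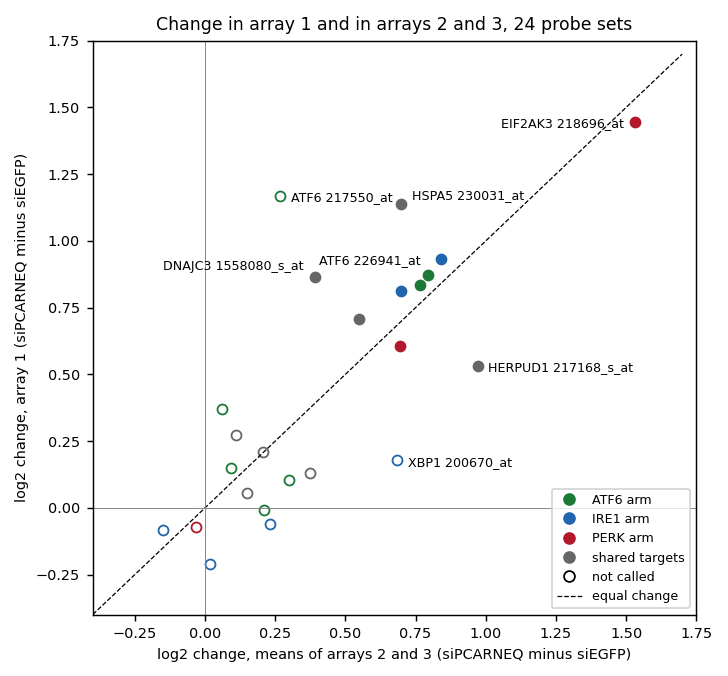
Log2 difference of the 24 probe sets between the single arrays 1 (vertical axis) and between the means of arrays 2 and 3 (horizontal axis), coloured by arm, with the dashed line marking equal change. Filled points passed the test, and EIF2AK3 218696_at lies close to the line at 1.53 and 1.45. ATF6 217550_at and HSPA5 230031_at lie above the line, with larger differences in array 1, and XBP1 200670_at and HERPUD1 217168_s_at lie below it.

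The sign of the difference was the same in array 1 and in arrays 2 and 3 for 21 of the 24 probe sets. How often this held over all probe sets was not counted. With arrays 2 and 3 of a group averaged as 1 replicate, 5 probe sets rose (1.99% of all probe sets rose in that fit), 1 each of ERN1, EDEM1 and EIF2AK3 and 2 of ATF6. DDIT3 (adjusted p = 0.052), DNAJC3 225284_at (0.0535), HERPUD1 217168_s_at (0.063), HSPA5 230031_at (0.0641) and DNAJC3 1558080_s_at (0.147) did not pass in that fit. Arrays 2 and 3 alone gave 14, against 16.6% of all probe sets.

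The wider machinery of the response, in 5 lists that hold none of the 10 genes, rose and fell in shares near those of all genes in the main fit. Of 66 measured genes, each represented by its brightest probe set, 12 rose, 7 fell and 47 did not pass, against 15.2% rising and 12.3% falling among all genes. Their median difference was 0.06, against -0.01 for all genes and 0.70 for the brightest probe sets of the 10 members. Members and lists were chosen with earlier results of these data known, so the gap between these medians is descriptive only. Averaging arrays 2 and 3 left 3 genes that rose and 4 that fell, where 6.05% and 5.26% of all genes did. With arrays 2 and 3 alone 23 rose and 12 fell, against 22.8% and 18.8% of all genes. Among the genes named below, the change in array 1 and that in arrays 2 and 3 had the same sign for every gene that passed, but their sizes differed by more than 1.5 times for ERO1A (-1.26 and -0.69), ASNS (-0.97 and -0.36), EIF2AK4 (1.01 and 0.48), NUPR1 (0.35 and 0.70) and CRELD2 (0.35 and 0.17).

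Partners of ATF6 went against the sensor in 1 prominent case. MBTPS2, the Golgi site-2 protease that makes the final cut in ATF6, had 11.01, 11.33 and 11.35 in siPCARNEQ cells, against 12.43, 12.50 and 12.49 in siEGFP cells. It fell by 1.25 (SE 0.10, adjusted p = 0.000242), with no overlap, and by 0.79 as the mean over its 3 probe sets. MBTPS1, the site-1 protease that cuts before it, differed by -0.31 and did not pass (adjusted p = 0.0883). Of the 12 genes of this list, which also held ER chaperones, 1 rose and 1 fell, and the median was 0.09. The gene that rose was CRELD2, an ER-stress-induced secreted protein, by 0.23 (adjusted p = 0.0472), a call lost when any 1 of the 6 arrays was left out (adjusted p = 0.0542 to 0.129) and with the replicate block (0.0533). PDIA3, a disulphide isomerase, differed by 0.22 and passed with the replicate block (adjusted p = 0.0711 without it and 0.0423 with it).

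In the IRE1 list, which held XBP1 targets and the ER import machinery among others, 3 of 14 genes rose and 2 fell, with a median of 0.03. DNAJB9, a BiP co-chaperone and XBP1 target, had 11.84, 12.29 and 12.27 in siPCARNEQ cells, against 11.00, 11.34 and 11.36 in siEGFP cells. It rose by 0.90 (SE 0.15, adjusted p = 0.00453), and did not pass when its probe sets were averaged (0.72, adjusted p = 0.0656). SRPRA, a subunit of the receptor that docks ribosomes at the ER, rose by 0.91 (SE 0.13, adjusted p = 0.00183). The remaining gene that rose, named after its values were seen, was BLOC1S1, by 0.43 (SE 0.09, adjusted p = 0.00902). SEC63, a translocon partner, and SSR1, a subunit of the translocon-associated complex, fell by 0.88 and 0.82 (adjusted p = 0.000221 and 0.000257). Averaged over their probe sets these falls were smaller, with differences of -0.42 and -0.50.

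The PERK list had 2 of 19 genes higher and 4 lower, with a median of -0.01. PPP1R15B, a subunit of the phosphatase that reverses eIF2alpha phosphorylation, fell by 0.65 (SE 0.09, adjusted p = 0.00216). EIF2AK2, the RNA-activated eIF2alpha kinase PKR, fell by 0.43 (adjusted p = 0.0029), and NUPR1, a stress-induced nuclear protein, rose by 0.58 (adjusted p = 0.00776). ERO1A, an ER oxidase, fell by 0.88 in its brightest probe set (SE 0.18, adjusted p = 0.00934), while its brightest probe set without a suffix for possible cross-matching differed by -0.07 (adjusted p = 0.7). The other genes past the threshold, named after their values were seen, were the amino-acid-sensing kinase EIF2AK4, which rose by 0.65, and asparagine synthetase ASNS, which fell by 0.56. ASNS did not pass as the mean over its probe sets (-0.32, adjusted p = 0.0538) or in its brightest probe set without a suffix (-0.08, adjusted p = 0.679). ATF4, the factor between PERK and DDIT3, and its target TRIB3, likewise singled out after their values were seen, differed by -0.05 (95% interval -0.34 to 0.24) and -0.01 (-0.22 to 0.20).

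Among ER-associated degradation genes 3 of 16 rose and 0 fell, with a median of 0.08, where 15.2% and 12.3% of all genes did. At an unadjusted p below 0.05 in limma, 6 rose and 2 fell, where 3978 and 3473 of all 19775 genes did. With arrays 2 and 3 alone 5 rose and 2 fell, where 22.8% and 18.8% of all genes did. DERL1, a channel component, rose by 0.50 (SE 0.07, adjusted p = 0.00187), and the lectins ERLEC1 and OS9 rose by 0.42 and 0.32 (adjusted p = 0.00298 and 0.0294). As the mean over its probe sets DERL1 rose by 0.21 and ERLEC1 by 0.22. OS9 did not pass without siPCARNEQ array 2 or 3 or without siEGFP array 2 or 3 (adjusted p = 0.0553, 0.0697, 0.115 and 0.111). UFD1, a cofactor of the VCP segregase, differed by -0.31 (adjusted p = 0.0521) and passed with the replicate block (adjusted p = 0.0303).

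Of the 5 CREB3 factors, transcription factors anchored in the ER like ATF6, 3 rose and 0 fell, with a median of 0.32. Among all genes 15.2% rose and 12.3% fell. At an unadjusted p below 0.05 in limma 3 rose and 0 fell too, where 3978 and 3473 of all 19775 genes did. CREB3L4, known as an androgen-induced factor of the prostate, had 10.87, 10.88 and 10.93 in siPCARNEQ cells, against 9.95, 10.17 and 10.17 in siEGFP cells. It rose by 0.80 (SE 0.08, adjusted p = 0.00052). CREB3L2 rose by 1.04 (SE 0.19, adjusted p = 0.00682), by 0.42 when its probe sets were averaged and by 0.29 in its brightest probe set without a suffix. CREB3 rose by 0.32 (adjusted p = 0.00974), and CREB3L1 differed by -0.04 (95% interval -0.25 to 0.17).

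**Figure D4:**
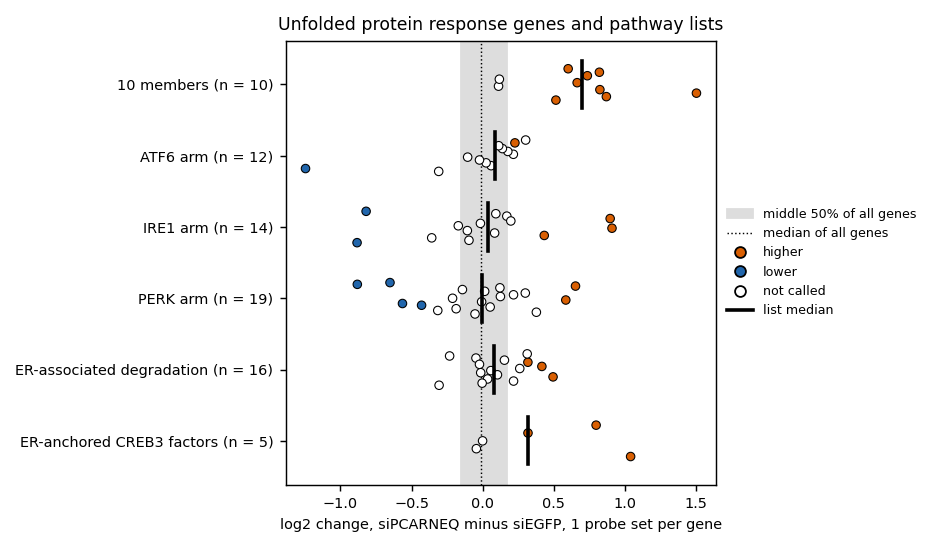
Log2 difference (siPCARNEQ minus siEGFP) of the 10 members and of the genes of 5 pathway lists, with 1 probe set per gene. Orange points rose, blue points fell and open points did not pass, thick bars are list medians, and the grey band holds the middle 50% of all genes. The members have a median of 0.70, while the medians of the ATF6, IRE1, PERK and degradation lists lie between -0.01 and 0.09, inside the band. Members and lists were chosen with earlier results of these data known.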

How the data were processed

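Total RNA from 6 samples of LNCaP cells, 3 siPCARNEQ and 3 siEGFP, was measured on Affymetrix arrays. The authors deposited 1 linear intensity per probe set and array, made with RMA, per the submitters' processing notes. RMA corrects background, brings arrays to 1 distribution and summarises probes. The 6 arrays' sorted log2 values differed by at most 0.0049, so differences in total RNA are out of reach. The number of arrays limits the precision. Genes were taken from the platform annotation, which pairs 41091 of 54613 non-control probe sets with 1 gene, 1801 with several and 11721 with none listed. Gene identifiers matched to RefSeq updated 0 symbols.

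log2 was taken with no pseudocount. limma 3.58.1 (lmFit, eBayes; R 4.3.3) tested siPCARNEQ against siEGFP, 2-sided, on all 6 arrays without covariates, with Benjamini-Hochberg adjustment over all probe sets, all genes (brightest single-gene probe set) or all within-gene differences, and a threshold of 0.05. The code was tested on simulated data. Both groups carry replicate numbers 1 to 3. Deviations from group means correlated at 0.47, 0.30 and 0.34 between arrays of the same number, a link seen in the data and not given in the labels. Arrays 2 and 3 also correlated across groups (0.37 and 0.24). The correlations thus set array 1 apart from arrays 2 and 3 and do not single out same-numbered pairs. The main fit did not use the replicate numbers. The replicate block was an alternative, as were a filter on level, cyclic loess, a pseudocount of 16, averaging arrays 2 and 3, arrays 2 and 3 alone, each array left out, other ways to represent a gene, and limma's diffSplice.

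The 10 members, the lists and the tests were chosen with earlier results of these data known. Named genes are all members and up to 4 genes with the smallest p per list, and others are marked. Of 70 listed genes 66 had a single-gene probe set, and the other 4 were not analysed here. Figures were drawn with matplotlib 3.10.9 under Python 3.11.15.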

Additional observations from a re-analysis of the deposited data

How the results depend on the processing

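Of the counts, those of member probe sets that rose (10) lay between 9 and 14 in every alternative tried except averaging arrays 2 and 3, which gave 5, and none fell in any of them. The replicate block gave 11 member probe sets that rose, with XBP1 200670_at added, 15 pathway genes that rose and 9 that fell, and 10 member probe sets that departed from the others of their gene. It also lost CRELD2 and added PDIA3 and UFD1 among the named pathway genes. For pathway genes (12 higher, 7 lower), averaging arrays 2 and 3 gave 3 higher and 4 lower, arrays 2 and 3 alone gave 23 higher and 12 lower, and the mean over all probe sets of a gene gave 12 lower. For probe sets that departed from the others of their gene (7), averaging gave 0, arrays 2 and 3 alone gave 15, leaving out each array gave 2 to 11, and diffSplice gave 10. Averaging leaves 4 columns, hence fewer degrees of freedom. No called difference of a member probe set or named gene changed sign under any alternative. The sensor differences, whose alternatives were chosen after seeing the data, kept their sign with cyclic loess, the pseudocount and each array left out, and gave an exact p of 0.25 within numbered pairs, with ATF6 minus EIF2AK3 at -0.82 to -0.60. With the level filter the 4 dim member probe sets are not tested, and dim signals have no measured background here.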

Other observations

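Probe sets of transcripts annotated beside members, chosen after their values were seen, moved in both directions. EIF2AK3-DT, a non-coding RNA named as the divergent transcript of EIF2AK3, had 8.76, 8.55 and 8.50 in siPCARNEQ cells, against 8.01, 7.86 and 7.87 in siEGFP cells (236990_at). It rose by 0.69 (SE 0.09, adjusted p = 0.0032 in limma over all probe sets), with no overlap between groups, while EIF2AK3-AS1, the antisense transcript, differed by -0.03 (adjusted p = 0.852). DNAJC3-DT, the divergent transcript of DNAJC3, fell by 0.51 in 240574_at (SE 0.11, adjusted p = 0.019), with 7.73, 8.05 and 7.91 in siPCARNEQ cells, against 8.26, 8.47 and 8.48 in siEGFP cells. Its other probe set, 239119_at, lay below the median level and differed by -0.03 (adjusted p = 0.872).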
